A study of Mus musculus with 11 samples.

Results

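Knockout and control granulocyte-macrophage progenitors (GMP) of Dnmt3a fl/fl mice were compared by bisulfite sequencing. The 3 knockout libraries were 178, 179 and 352 (titles naming the Mx1-Cre transgene as present), and the 2 control libraries were 346 and 349 (no Cre). All mice were C57BL/6, homozygous for the floxed Dnmt3a gene, 12 months old, and given 5 injections of poly(I:C), controls included, so that the comparison holds the interferon stimulus and the floxed allele constant. Mx1-Cre is switched on by interferon in blood cells and in other tissues, and not in every cell of a marrow. GMP were sorted from bone marrow as Lin- Sca1- cKit+ CD34+ FcgR+ cells. Library 352 was counted as knockout from its title and file name, while its genotype field names a Cre-negative mouse, so values without it are given beside the main results. The labels do not say that the libraries came from separate animals, so p-values reflect only how these libraries scatter, which may be technical. The members were the 1308327 C positions of CpG sites on autosomes with 10 or more reads in all 5 GMP libraries, of 1714879 autosomal positions listed in at least 1 GMP library and 1915457 listed in any of the 11 libraries of the series. The 6 others came from Lin- Sca1+ cKit+ cells (LSK, a population that includes blood stem cells). They were 3 control and 3 knockout libraries, with the same age and injections in their labels.

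Dnmt3a is a DNA methyltransferase that adds methyl groups to cytosines that carried none, mostly at CpG sites, and it is active in blood stem and progenitor cells. Dnmt1 copies the existing pattern at each cell division, and the Tet enzymes oxidise methylated cytosine. DNMT3A is often mutated in human clonal haematopoiesis and myeloid leukaemia. GMP arise from multipotent progenitors and give rise to neutrophils and monocytes.

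The targeted gene was examined first. Dnmt3a lies on chromosome 12, 3801559 to 3914443 (GRCm38), and a segment inside its body holds 5 listed C positions, the inner 3 at 3903799, 3904014 and 3904015. In control 346 these carried 88, 60, 59, 40 and 59 reads, and in control 349 they carried 74, 117, 115, 24 and 115. In knockout 178 they carried 14, 28, 31 and 31 reads, with the fourth position unlisted, which means fewer than 10 reads. Knockout 179 had all 5 positions, with 40, 57, 47, 24 and 47 reads. None of the 5 was listed in 352. The number of reads over the segment was divided by that of 33 listed positions within 10 kb on either side and set against the mean of both controls. By this measure the controls were at 85.2% and 114.8%, knockout 179 at 53.3%, knockout 178 at 27.9% (at most 30.4% if its unlisted position had 9 reads) and 352 at 0% (at most 11.1%). The controls themselves differ by about as much as 179 differs from the lower of them. The 3 knockout LSK libraries also had 0 of the 5 positions listed. On this segment 352 therefore stood with its title and against its genotype field. Reads carry no molecular identifiers, and how coverage of the segment relates to the share of cells that had recombined was not tested.

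Coverage summed over listed C positions was 95.4 to 109.7 M (1e6) per GMP library, and the median position had 50 to 59 reads. A read over several positions counts at each, so the sum is not a number of reads. Every pair of libraries held different values: mean absolute differences between any 2 of the 5 libraries were 3.47 to 4.47 percentage points. The smallest was between knockouts 178 and 179, while controls 346 and 349 differed by 3.84 and 352 differed from the other 4 libraries by 3.76 to 4.47. Y-chromosome positions were listed in all 5 (1226 to 1326). Among LSK libraries there were 1470 such positions in control 1326 and 1422 in knockout 1327. There were only 211 and 212 in controls 1330 and 1331, and 229 and 220 in knockouts 1333 and 1334. The median LSK position had 85 to 103 reads. What part these differences have in comparisons of control GMP with control LSK was not tested. The cell type can be checked here only by methylation. Of 10 GMP granule and receptor genes, bodies of 5 and starts of 2 were measured in all libraries. Of these, 2 bodies and 1 start were lower in control GMP, with both control GMP libraries below every control LSK library. The body of Mpo, the myeloperoxidase gene of neutrophil granules, was at 51.5% and 46.4% in control GMP, 57.8%, 48.3% and 51.3% in 178, 179 and 352, and 89.8% to 91.5% in control LSK. Fcgr3, an Fc gamma receptor gene, was at 75.3% to 77.0% in the 5 GMP libraries and 90.9% to 94.1% in control LSK. The start of Cebpe, a granulocyte transcription factor, was at 53.7% to 64.0% in GMP and 84.0% to 87.1% in control LSK. At these 3 genes 352 lay with the other GMP libraries. Bodies of Csf1r and Prtn3 were not lower in control GMP, and that of Gfi1 was higher there than in control LSK (33.3% and 34.3% against at most 19.3%) and at 4.06% in 352. Mean levels over bodies of lymphoid markers (5 of 8 measured) were 46.3% in control GMP and 49.5% in control LSK. Those of erythroid markers (4 of 7) were 29.5% in both, and of LSK and stem markers (8 of 10) 40.8% and 38.9%. Those of mature neutrophil and macrophage markers (3 of 8) were 91.3% and 93.7%. In these lists 1 lymphoid, 0 erythroid, 1 stem and 1 mature body were lower in control GMP by the same criterion. The lymphoid one was Dntt, at 7.06% and 5.47% in control GMP and 25.5% to 31.0% in control LSK. Lower levels in control GMP were thus not limited to the GMP list. The share of all gene bodies and starts that meet this criterion was not counted, so the counts have no background value. Whether a few other cells entered a sort was not tested.

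Short stretches of promoter sequence show what was measured. The 4 promoters below, from RefSeq (GRCm38.p6), were chosen after their values were seen because they hold several measured CpGs within tiles that were lower in knockout GMP (Gm32316 and Alpk3) or in knockout LSK (Eva1b and Gm13205). Each runs 5′ to 3′ on the gene's strand from 250 bases before to 50 after the start, and capitals mark the CpGs measured in all 5 libraries. Their positions are chr2:30652442-30652741 (minus strand) for Gm32316, chr7:81057350-81057649 (plus) for Alpk3, chr4:126147753-126148052 (plus) for Eva1b and chr4:148952273-148952572 (minus) for Gm13205.
Gm32316: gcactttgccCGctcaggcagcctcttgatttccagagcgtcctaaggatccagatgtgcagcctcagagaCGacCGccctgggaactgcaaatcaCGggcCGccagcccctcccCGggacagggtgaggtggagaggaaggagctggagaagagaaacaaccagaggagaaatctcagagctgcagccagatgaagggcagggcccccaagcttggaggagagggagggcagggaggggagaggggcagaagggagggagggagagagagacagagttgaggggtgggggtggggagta
Alpk3: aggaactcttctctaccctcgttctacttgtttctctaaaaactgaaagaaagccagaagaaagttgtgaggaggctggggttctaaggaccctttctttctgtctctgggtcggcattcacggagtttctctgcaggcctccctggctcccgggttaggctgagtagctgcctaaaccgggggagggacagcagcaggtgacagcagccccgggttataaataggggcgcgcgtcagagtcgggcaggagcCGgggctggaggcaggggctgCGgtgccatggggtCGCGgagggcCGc
Eva1b: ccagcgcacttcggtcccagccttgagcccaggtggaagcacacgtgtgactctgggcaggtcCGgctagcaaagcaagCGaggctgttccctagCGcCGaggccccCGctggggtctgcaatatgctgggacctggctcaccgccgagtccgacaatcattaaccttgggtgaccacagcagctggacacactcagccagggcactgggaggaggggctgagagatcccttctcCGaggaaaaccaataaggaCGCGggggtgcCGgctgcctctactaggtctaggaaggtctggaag
Gm13205: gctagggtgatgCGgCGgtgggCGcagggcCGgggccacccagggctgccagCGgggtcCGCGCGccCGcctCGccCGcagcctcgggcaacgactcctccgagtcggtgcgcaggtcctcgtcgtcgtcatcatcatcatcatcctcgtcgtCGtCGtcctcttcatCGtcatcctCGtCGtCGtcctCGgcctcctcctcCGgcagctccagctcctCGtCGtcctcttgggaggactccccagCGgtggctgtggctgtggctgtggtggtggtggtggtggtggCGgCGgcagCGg

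Over the 6 measured positions of the Gm32316 promoter, a long noncoding RNA gene, the mean level was 84.0% and 86.0% in controls 346 and 349, 44.9% in 178, 55.0% in 179 and 30.3% in 352. At position -153 relative to its start, 81.6% and 85.7% of the control reads were methylated, against 30.4% in 178, 57.1% in 179 and 0% of 64 reads in 352. Position -240, on the other strand, did not follow that order, with 40% in 178, 63.5% in 179 and 65.9% in 352. Alpk3, a kinase gene known from heart muscle, had 10 measured positions within 50 bases after its start, with means of 94.6% and 82.4% in controls, 51.1% in 178, 57.2% in 179 and 41.8% in 352. These rest on 14 to 37 reads per position and library. The 27 measured positions of the Gm13205 promoter stood at 92.9% and 93.2% in controls, 71.3% in 178, 80.7% in 179 and 54.9% in 352, so knockout and control means did not overlap. Eva1b, which encodes a membrane protein, was at 45.6% and 51.0% in controls, 43.5% in 178, 35.0% in 179 and 9.15% in 352. There 178 lay close to the lower control, and the loss was largely that of 352.

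Across all members, methylation was slightly lower in knockout GMP. The mean level was 34.1% in 346, 34.2% in 349, 33.3% in 178, 33.4% in 179 and 32.7% in 352, which is 34.1% ± 0.0402 (SD, n = 2) in controls and 33.1% ± 0.367 (SD, n = 3) in knockouts. All 3 knockouts were below both controls, by 1.02 points on average (exact two-sided permutation test, p = 0.2, the smallest that 3 against 2 libraries allow). Without 352 the difference was -0.809 points (exact permutation p = 0.333, the smallest for 2 against 2). The unweighted mean counts each position once, whereas a mean weighted by coverage differed by 0.411 points in the other direction (exact permutation p = 0.6), with knockouts at 29.8% to 30.7% and controls at 29.2% and 30.2%. The direction over all members therefore depends on the weighting, and the weighted difference is within the spread between libraries. Of single positions, 62.0% to 62.7% had a level under 20% in the knockouts and 61.5% to 61.6% in the controls, while 29.1% to 30.4% and 30.6% to 31.0% were at 80% or more.

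The difference per position was largest at intermediate levels. Members were binned by their mean level in the 3 control LSK libraries, which take no part in the comparison. The 80745 members at 20% to 80% there had mean GMP levels of 54.1% in 346 and 54.5% in 349, against 48.8% in 178, 50.1% in 179 and 44.3% in 352. Both controls lay close together and all knockouts were below them, with a difference of -6.56 points, and of -4.85 without 352. The difference was -6.19 points in the bin from 20% to 40%, -7.52 from 40% to 60% and -6.23 from 60% to 80%, but -1.35 from 80% to 100% (393249 members) and -0.263 from 0% to 20% (791712 members). Without 352 these were -4.74, -5.49, -4.56, -1.10 and -0.236 points. The outer bins hold many more members, so their small differences add up over the genome. In each bin the exact permutation p was 0.2 with 352 (n = 3 against 2) and 0.333 without it, again the smallest possible. In the plot of differences by starting level, 352 lies lowest in every bin. Library 179 had 6.78% of its positions at exactly 100%, against 10.8% to 13.8% in the other 4, and what part this has in its level in the highest bin was not tested.

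**Figure D1:**
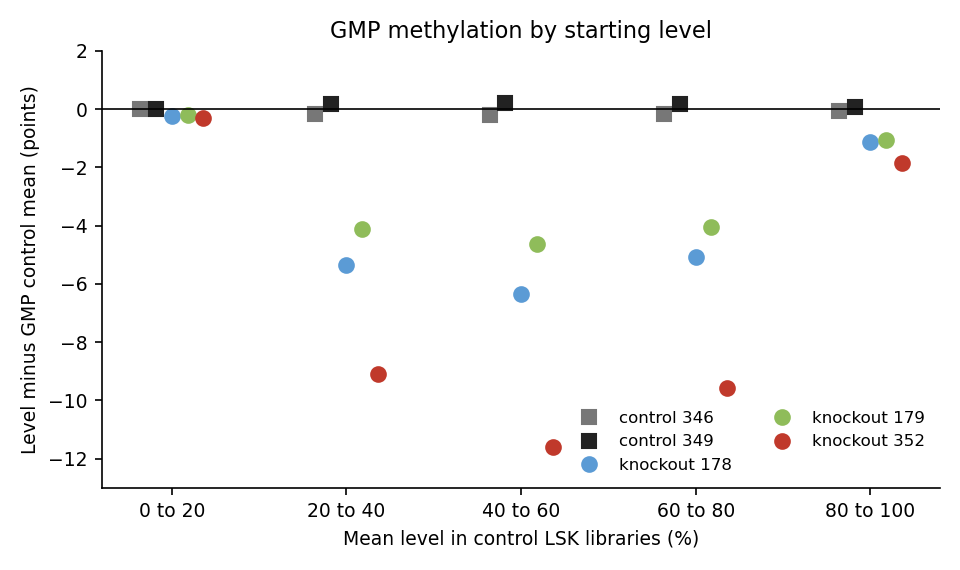
Mean methylation level of each GMP library minus the mean of the 2 GMP controls (percentage points, vertical axis) for members binned by their mean level in control LSK libraries (percent, horizontal axis); squares are controls and circles are knockouts. In the 3 bins between 20% and 80% all knockouts lie below the controls and 352 lies lowest, while the outer bins differ by less.

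The regions that lose methylation in knockout LSK lost it in GMP too, in the order of the Dnmt3a segment. A model fitted on the 6 LSK libraries alone had put 997 of 104429 tiles (fixed windows of 1000 bp with at least 3 members) lower in knockout LSK by at least 20 points, against 3 higher, and 954 of the 997 were measured in GMP. Over these the mean level was 63.6% in 346 and 64.1% in 349, 51.1% in 179, 45.2% in 178 and 30.4% in 352. Both controls were near the 62.9% to 63.8% of control LSK, and 352 was below the 33.7% to 39.9% of knockout LSK, libraries in which the tiles were chosen. The knockout mean was 42.2% ± 10.6 (SD, n = 3), 21.6 points below the 63.9% ± 0.338 (SD, n = 2) of controls (exact two-sided permutation p = 0.2). Without 352 the difference was -15.7 points (exact permutation p = 0.333). The loss was 12.8 points in 179, 18.7 in 178 and 33.4 in 352, which is 46.9%, 68.7% and 123% of the 27.2 points lost in LSK over the same tiles. Coverage missing over the segment was 46.7% in 179, 72.1% in 178 and 100% in 352, so the libraries have the same order in both. With 3 libraries no correlation was computed.

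**Figure D2:**
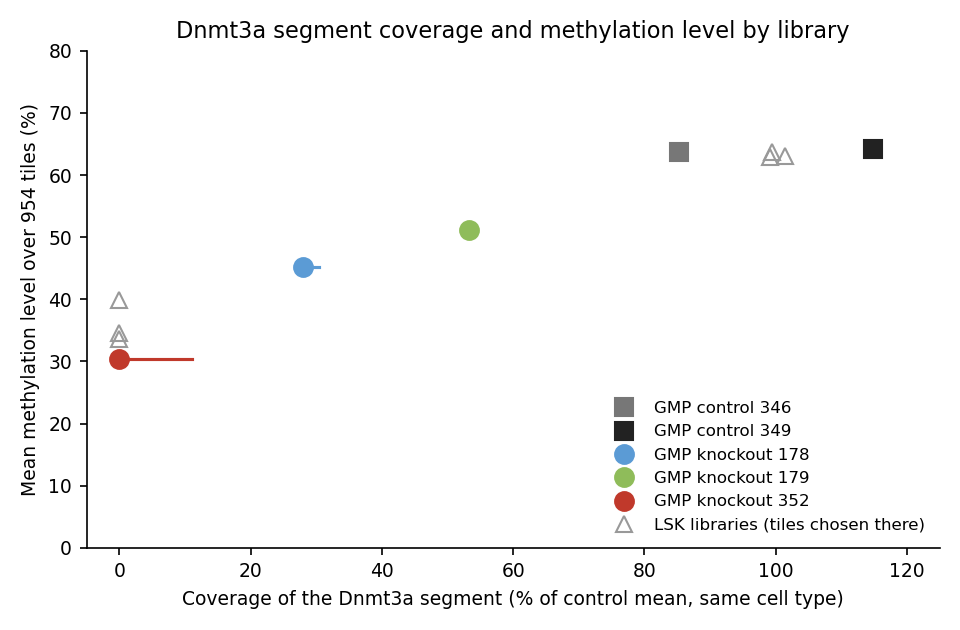
Mean methylation level over the 954 tiles lower in knockout LSK (percent, vertical axis) against coverage of the Dnmt3a segment (percent of the control mean of the same cell type, horizontal axis), 1 symbol per library; horizontal lines reach the coverage if unlisted positions had 9 reads. The controls lie at 63.6% and 64.1%, and 179, 178 and 352 follow with falling coverage; open triangles are the LSK libraries in which the tiles were chosen.

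This order held for most of these tiles and, over tiles at intermediate levels, on every chromosome. Of the 954 tiles, 668 (70.0%) had 352 below 178 and 178 below 179. Library 352 was below 178 in 880 (92.2%) and below 179 in 921 (96.5%), and 178 was below 179 in 738 (77.4%). These shares by order were not counted over all tiles, so they have no background value. All 3 knockouts lay below both controls in 765 tiles (80.2%), where 19.6% of all 103343 tiles did so and 6.19% had all 3 above. The median difference was -20.9 points, against -0.478 over all tiles. By library the median was -12.4 points in 179, -18.2 in 178 and -32.7 in 352. Over all tiles it was -0.293, -0.243 and -0.437, with 179 below 178. The whole distribution over the 954 tiles is shifted in each knockout, as the plot of tile differences shows, and not a few tiles alone. Over tiles at 20% to 80% in control LSK the loss was in the order 352, 178, 179 on 19 of 19 autosomes, with differences of -6.84 to -9.59 points per chromosome in 352, -3.40 to -5.23 in 178 and -2.33 to -3.99 in 179. Tiles and chromosomes all come from the same 3 knockout libraries. They describe how evenly the difference is spread and are not separate tests of the order.

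**Figure D3:**
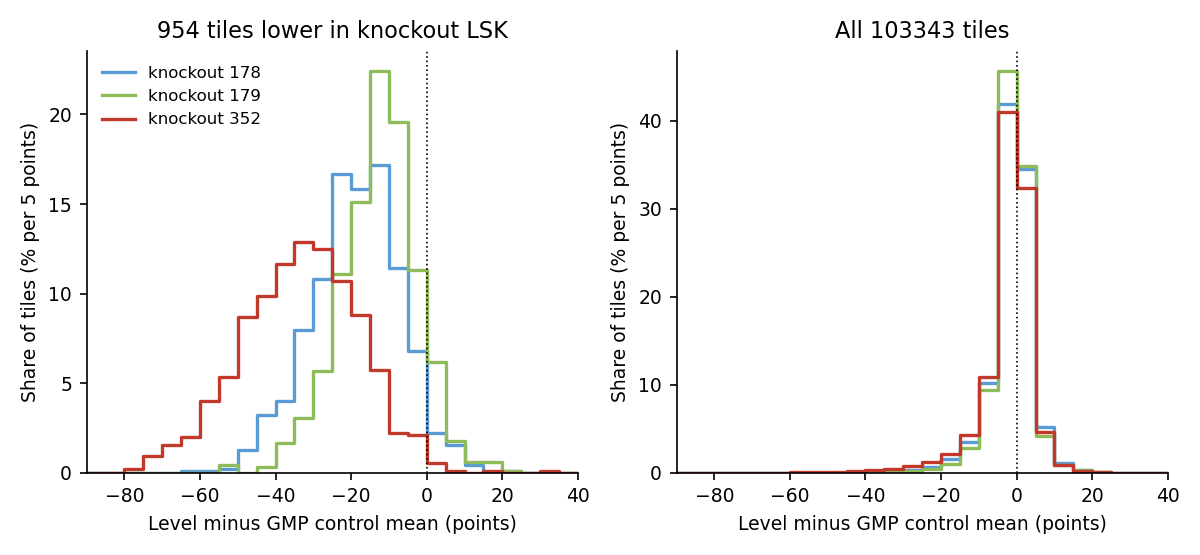
Share of tiles (percent per 5-point step, vertical axis) by the level of each knockout library minus the GMP control mean (percentage points, horizontal axis), left for the 954 tiles lower in knockout LSK and right for all 103343 tiles. On the left the 3 curves are centred near -12.4 (179), -18.2 (178) and -32.7 points (352), and on the right all 3 are centred near 0.

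Among tiles at 20% to 80% in control LSK, those at gene starts differed by -5.99 points (1632 tiles), those in gene bodies by -5.75 (7133) and those outside genes by -3.93 (4327). Without 352 the differences were -4.36, -4.09 and -2.87 points. Tiles with 20 or more members, the most CpG-dense, differed by -7.02 points (345 tiles, -5.67 without 352), and those with 3 to 4 members by -4.93 (6257 tiles, -3.50 without 352). Differences between these classes were not tested. Of the members in RefSeq promoter windows at 20% to 80%, the difference was -9.88 points where a T follows the CpG (215 members), -9.02 where an A follows (190), -8.49 with a C (490) and -6.87 with a G (1071). Without 352 these were -7.84, -7.16, -6.51 and -4.99 points. In all these classes the 3 knockouts were below both controls and 352 was lowest.

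At single features, the model of methylated and unmethylated reads called features with a Benjamini-Hochberg adjusted p under 0.05 (limma-moderated F test) and a minimum difference of 20 points for tiles. It called 50 of 103343 tiles lower in knockout GMP (0.0484%) and 2 higher (0.00194%). Without 352 it called 305 lower (0.295%) and 36 higher, and 47 of the 50 were among the 305. The lower calls were lost in other forms of the test: 0 tiles were called with limma on logit levels (9587 at an unadjusted p under 0.05) or with the prior fitted on all features (10613 at an unadjusted p under 0.05). They rest on single libraries too, with 1, 0 and 2 tiles called lower without 346, 349 and 178, and 652 without 179. In the 50 tiles the loss was 20.6 to 64.8 points with a median of 35.7, and all 3 knockouts were below both controls in each. Library 352 was lowest in 37 of them. The tiles were called on these same libraries, so these values are descriptions. Of the 48 also measured in LSK, 46 had a lower mean in knockout LSK and 23 passed the same threshold there. Of all 104429 tiles tested in LSK, 997 passed it as lower. The share of all tiles with a lower mean in knockout LSK was not counted, so the 46 have no background value. Gene bodies held 35 of the tiles (70.0%, against 51.7% of all tiles), gene starts 8 (16.0%, against 20.6%) and the rest of the genome 7 (14.0%, against 27.6%).

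By the mean of library levels, the largest loss was in a tile at the start of Egfl7, which encodes a secreted factor known from endothelium and hosts a microRNA. Its level was 79.3% in 346 and 80.2% in 349, and 19.4% in 178, 25% in 179 and 0.379% in 352 (adjusted p = 0.032, limma). Both controls lay far above all knockouts, a difference of -64.8 points over 4 positions with a mean of 268 reads per library. A tile beside Ifitm1, an interferon-induced membrane protein gene, stood at 71.7% and 72.3% in controls and 26.4%, 17.96% and 6.48% in 178, 179 and 352. Dlgap5, a gene of the mitotic spindle, had a body tile at 64.8% and 63.7% in controls, 20.6% in 178, 23.9% in 179 and 3.50% in 352. In Galnt2, which encodes an enzyme of O-glycosylation, the controls were at 75.4% and 55.1% and the knockouts at 19.4%, 13.1% and 4.76%. These controls differ from each other more than those of most tiles named here, and the tile has a mean of only 86.2 reads. Tnfaip2, a gene induced by tumour necrosis factor, was at 69.4% and 65.2% in controls and 25.1%, 29.6% and 9.18% in knockouts over 16 positions. Shc1, an adaptor of receptor tyrosine kinases, had a tile at its start at 51.7% and 51.8% in controls and 1.33%, 12.1% and 4.48% in 178, 179 and 352. Mvb12b, a gene of endosomal sorting, was at 90.5% and 85.7% in controls and 48.8%, 51.2% and 28.8% in knockouts.

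Called tiles also lay in 17 of 501 5-Mb windows that differ between the groups in which positions are listed at all. These windows hold 4.07% of the members, and 7 of the 50 lower tiles lie there, among them Plac8, Adpgk and Uri1. Plac8, known from myeloid cells, was at 68.2% and 84.3% in controls and 4.27%, 23.9% and 6.62% in 178, 179 and 352. Its loss exceeded that of Egfl7 in pooled reads (differences of -67.5 and -64.6 points) and in the mean without 352 (-62.1 and -57.5). Adpgk, an ADP-dependent glucokinase gene, was at 99.2% and 94.4% in controls and 35.4%, 46.4% and 39.3% in knockouts. At Adpgk the LSK libraries showed no such difference, with means of 95.4% in control and 93.2% in knockout LSK (adjusted p = 0.817, limma). Uri1, which encodes a prefoldin-like protein, was at 87.6% and 88.7% in controls and 45.7%, 55.5% and 22.0% in knockouts, and LSK fell from 74.5% to 40.4%. The part of these windows in the calls was not tested beyond leaving them out, which gave 32 lower tiles and 1 higher. Of the 2 higher tiles, the one in Srd5a3, a polyprenol reductase gene, lies in such a window, with 40.8% and 45.5% in controls and 90%, 87.0% and 71.3% in knockouts. Control and knockout LSK were at 83.6% and 81.2% at the Srd5a3 tile, so the control GMP stand apart from all other libraries. The other lies near Scpep1os, a noncoding RNA gene, with 42.8% and 49.9% in controls and 100%, 97.9% and 90.7% in knockouts. Control and knockout LSK were at 96.2% and 97.4% at the Scpep1os tile, so the control GMP stand apart from all other libraries there.

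**Figure D4:**
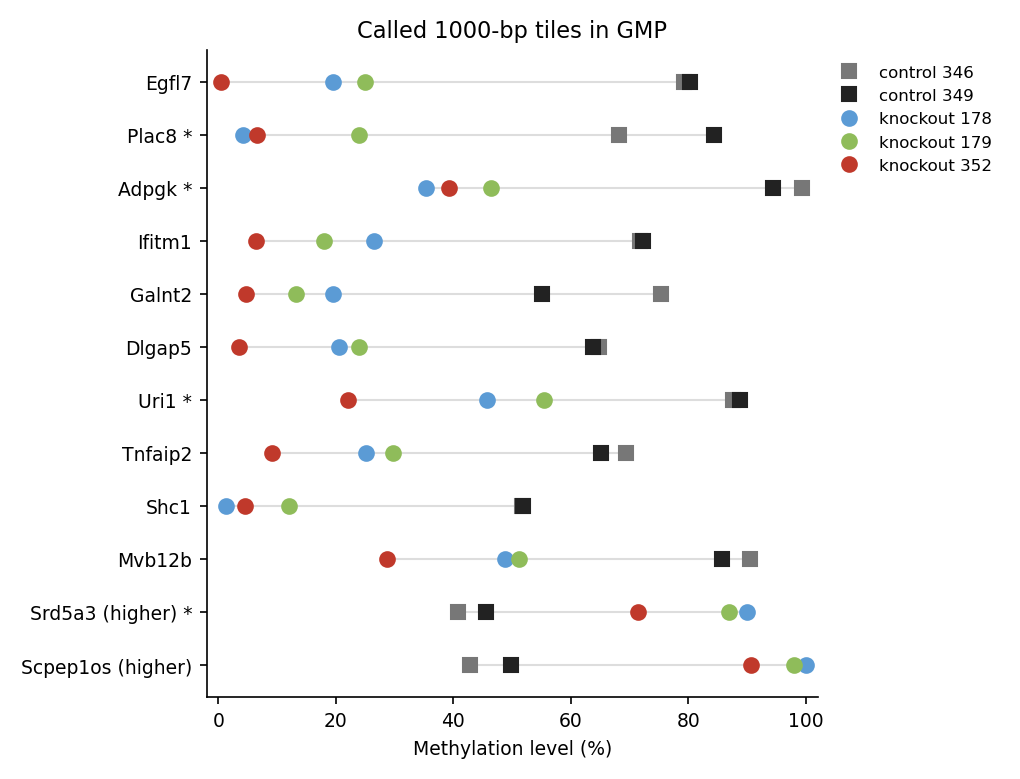
Methylation level (percent, horizontal axis) of the 5 GMP libraries in the 10 called tiles with the largest loss and the 2 called higher, named by the gene at or nearest to the tile; squares are controls, circles are knockouts, and an asterisk marks a tile in a 5-Mb window with group-specific positions. In the 10 lower tiles every knockout lies below both controls, which was a condition for naming them, and Egfl7 is at 0.379% in 352.

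In gene bodies (farther than 1000 bp from both ends, minimum difference 10 points), 32 of 14296 were called lower (0.224%) and 3 higher (0.021%). Without 352, 118 were lower (0.825%) and 10 higher, and 31 of the 32 were among the 118. As for tiles, the calls depend on the form of the test and on single libraries: limma on logit levels called 1 lower, the prior fitted on all features called 0, and 1, 0 and 0 were called lower without 346, 349 and 178, against 197 without 179. Of the 32 genes, 24 are protein-coding, and 352 was lowest in 24. Kcnn4, a calcium-activated potassium channel of blood cells, showed the pattern over 56 positions, at 75.3% and 75.4% in controls, 46.3% in 178, 47.8% in 179 and 20.8% in 352 (adjusted p = 0.039, limma). Both controls were level with each other and 352 was lower by a wide margin than the other knockouts. Ssh3, a phosphatase gene of the actin cytoskeleton, was at 49.5% and 50.0% in controls and 11.4%, 22.0% and 0.990% in 178, 179 and 352. Nfe2l2, which encodes the antioxidant regulator NRF2, was at 38.2% and 43.6% in controls and 13.4%, 18.5% and 3.16% in knockouts. Tnfaip2 (77.7% and 74.4% in controls, 44.4%, 52.7% and 32.6% in knockouts) and Neurl1b, a ubiquitin ligase gene (90.3% and 89.2%, then 59.3%, 71.5% and 51.6%), were called in their bodies as well as in a tile.

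The other 5 of the 10 largest losses were the noncoding genes 5830408C22Rik, Gm46762, Tmem51os1, Gm51900 and Gm32024, with differences of -27.2 to -30.4 points. Hoxb1, a homeobox gene, was the only member of the gene lists called in its body by genotype. It was at 46.6% and 43.9% in controls and 21.9%, 22.6% and 13.3% in 178, 179 and 352 (adjusted p = 0.026, limma). Tiles called lower by genotype also lay in the listed genes Msi2, Nfix, Hoxa3, Hoxb6 and Egfl7. The 3 bodies called higher were Srd5a3 (28.7 points, in a group-specific window), Nsd3, a histone H3 lysine methyltransferase gene (49.7% and 43.8% in controls, 62.7%, 58.1% and 66.6% in knockouts), and Gm26861 (36.9% and 38.8%, then 48.5%, 50.8% and 51.3%). At gene starts (within 1000 bp), 0 of 17931 were called in either direction with limma, and 759 had an unadjusted p under 0.05. Without 352, 51 were called lower (0.284%) and 3 higher.

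Over the 954 tiles lower in knockout LSK, mean levels of the knockouts ranged from 30.4% in 352 to 51.1% in 179. A 2-group test counts spread within a group as error, and its part in the number of calls was not tested. In a model chosen after seeing the data, the genotype was replaced by the segment coverage of each library, with controls at 100%. It called 1684 tiles lower (1.63%) and 20 higher, 160 gene starts lower (0.892%) and 1 higher, and 417 gene bodies lower (2.92%) and 8 higher. Without 352 it called 508 tiles lower and 54 higher, 63 starts lower and 5 higher, and 89 bodies lower and 8 higher, so these counts rest to a large part on 352. Of the 50 tiles lower by genotype 47 were among the 1684, and of the 32 bodies 31 were among the 417. Both models were fitted on the same GMP libraries, and segment coverage also sets controls apart from knockouts. This overlap is therefore a description and not separate support. Of 1614 such tiles measured in LSK, 605 (37.5%) were also lower in knockout LSK, which is 63.4% of the 954. Of all 104429 tiles tested in LSK, 997 were lower there. Gene bodies held 67.5% of the 1684 tiles, against 51.7% of all tiles, and gene starts 12.8%, against 20.6%. Group-specific windows held 5.23% of the lower tiles, 8 of the 20 higher ones and 4.25% of all.

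The 10 tiles with the largest loss in knockout LSK were chosen there and lay in or near Pik3c2b, Gnai2, Runx3, Cbfa2t3, Dok2, Zc3h3, Prxl2a, Pitpnm2 and Rerg. In Gnai2, which encodes a G protein subunit that acts below chemokine receptors, the GMP levels were 78.0% and 80.3% in controls, 38.2% in 178, 45.3% in 179 and 4.54% in 352. Cbfa2t3, a corepressor gene, had 78.9% and 89.1% in controls and 39.5%, 59.1% and 13.6% in knockouts. Pik3c2b, a lipid kinase gene, had 92.6% and 94.0% in controls and 51.7%, 68.2% and 30.4% in knockouts. In these tiles the knockouts were in the order of the Dnmt3a segment. In Runx3, a Runt-family transcription factor gene with 2 of the 10 tiles, the levels were 81.7% and 87.5% in controls against 51.6%, 73.5% and 26.5% in one, and 72.3% and 55.2% against 33.1%, 41.5% and 12.9% in the other. Dok2, an adaptor that dampens kinase signalling, had 71.0% and 83.0% in controls and 39.6%, 47.0% and 18.1% in knockouts. Only the Pitpnm2 tile (89.2% and 93.9%, then 57.9%, 61.2% and 31.4%) passed the genotype test (adjusted p = 0.047, limma). The other 9, those of Zc3h3, Prxl2a and Rerg included, had all 3 knockouts below both controls and adjusted p of 0.071 to 0.304 (limma).

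Gene lists for blood cell programmes, chosen with earlier results of these data known, were counted next. By genotype, 1 of 26 measured Hox gene bodies was called lower (Hoxb1), and 0 bodies were in every other list. The median difference over gene bodies was -3.23 points for self-renewal genes (26 measured), -4.08 for adhesion and homing genes (11) and -2.18 for genes of stroma and endothelium (12), against -0.887 over all bodies. Without 352 these medians were -2.49, -3.05 and -0.697 points, against -0.649 over all bodies. For the DNA methylation machinery (14 measured) it was 0.00922 points, for lymphoid genes (15) -0.427 and for myeloid differentiation genes (12) -0.550, and 0.153, 0.120 and -0.352 without 352, so the sign for lymphoid genes turned. By segment coverage, the tiles called lower were 34 of 355 (9.58%) in self-renewal genes, 17 of 174 (9.77%) in leukaemia genes, 4 of 58 (6.90%) in adhesion and homing genes, 5 of 74 (6.76%) in erythroid and megakaryocyte genes and 9 of 140 (6.43%) in Hox genes, where 1.63% of all tiles were. Without 352 these counts were 14, 7, 1, 2 and 6, where 0.492% of all tiles were lower. Outside group-specific windows, an alternative added after seeing the data, they were 24 of 282, 14 of 161, 3 of 55, 5 of 73 and 9 of 140. The self-renewal and leukaemia lists share the 3 tiles of Runx1, and 9 of the self-renewal tiles are in Prdm16 and 9 in Nfix. Developmental transcription factor genes had 2 of 293 (0.683%), and germline and interferon response genes 0 of 31 and 0 of 27 (0, 1 and 0 tiles without 352).

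Several of these genes had all knockouts below both controls across their bodies. Hlf, a transcription factor of stem cells, was at 52.6% and 51.7% in controls, 34.1% in 178, 37.6% in 179 and 18.4% in 352 (adjusted p = 0.0630 by genotype, 0.0019 without 352 and 0.0002 by segment coverage, limma). Gfi1, a repressor that guides granulocyte development, was at 34.5% and 35.5% in controls and 23.3%, 20.2% and 3.97% in 178, 179 and 352, with 179 below 178. Mn1, a cofactor gene rearranged in leukaemia, was at 56.4% and 62.4% in controls and 45.5%, 49.3% and 35.6% in knockouts. Gfi1 and Mn1 lie in group-specific windows, and the part of these in their levels was not tested. Nfix, a transcription factor of stem cell maintenance, was at 28.1% and 27.1% in controls and 19.9%, 20.5% and 12.7% in knockouts over 397 positions. A tile of 27 positions in the Nfix body was called by genotype, at 72.2% and 77.1% against 35.1%, 44.0% and 19.3%. Msi2, an RNA-binding protein of stem cells, was at 83.1% and 82.8% in controls and 77.6%, 79.8% and 70.3% in knockouts, and a single tile in its body was called by genotype, at 30.2% and 31.8% against 8.65%, 8.44% and 3.10%. At gene starts, Hoxa6 was at 39.4% and 30.7% in controls and 14.2%, 20.5% and 3.79% in knockouts. The start of Nap1l5, an imprinted gene, was at 64.3% and 71.7% in controls and 46.8%, 50.6% and 44.8% in knockouts, where 352 was close to 178.

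**Figure D5:**
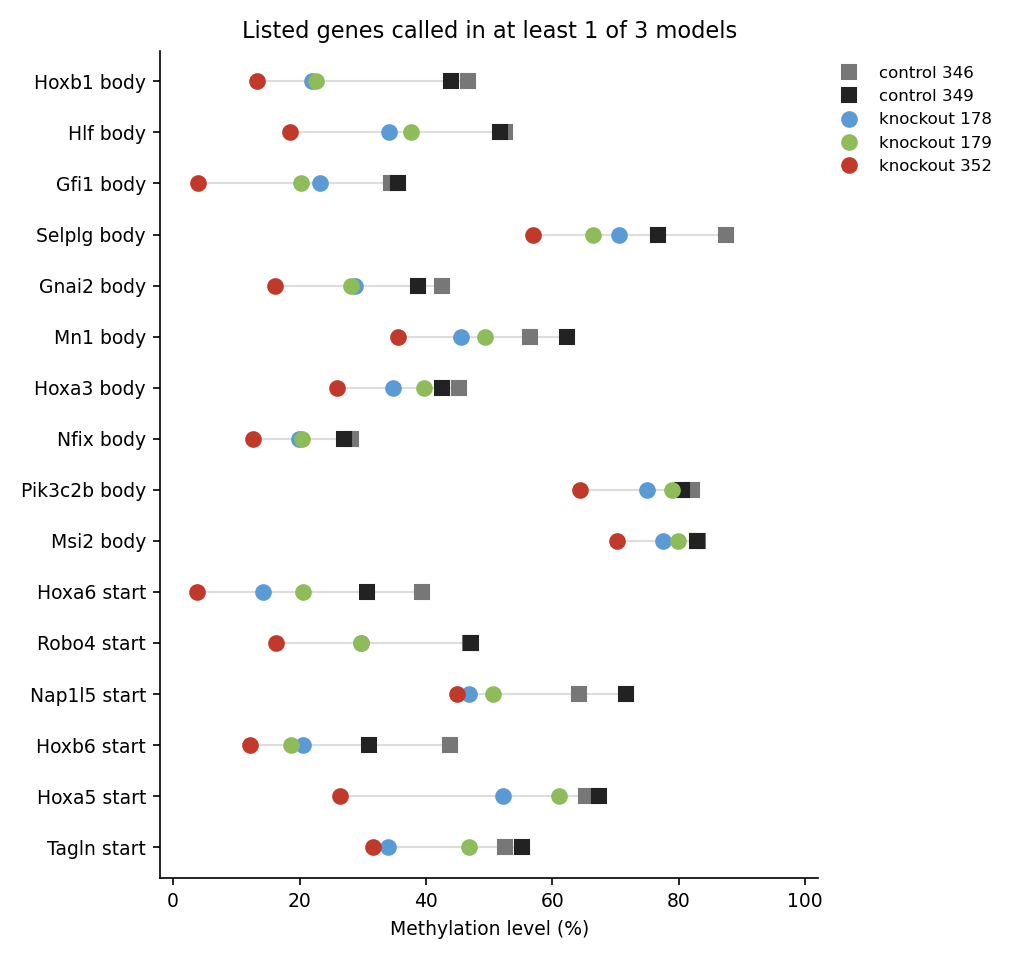
Methylation level (percent, horizontal axis) of the 5 GMP libraries over bodies and starts of the listed genes called by genotype, by genotype without 352 or by segment coverage. Squares are controls and circles are knockouts. Genes on chromosome 18 are not shown. For Hoxb6 and Tagln the feature labelled start is the gene end with more members. In every gene shown the knockouts lie below both controls, and 352 lies lowest.

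Over whole gene bodies and starts, Dnmt3a itself and related enzymes showed no called difference. The body of Dnmt3a was at 12.9% and 14.0% in controls and 15.4%, 14.9% and 14.7% in 178, 179 and 352 (adjusted p = 0.572, limma). Dnmt3b, the other de novo enzyme, was at 91.1% and 90.2% in controls and 90.7%, 90.2% and 90.03% in knockouts. Dnmt1, the maintenance enzyme, was at 45.2% and 44.5% in controls and 43.7%, 47.7% and 45.7% in knockouts. Tet2, which oxidises methylated cytosine, was at 94.99% and 93.6% in controls and 91.4%, 92.6% and 92.7% in knockouts. The starts of all 4 genes were under 1% in every library. By segment coverage, 1 tile of 7 positions in the body of Dnmt3a, outside the segment, was called lower, at 38.0% and 43.2% in controls and 23.3%, 29.9% and 9.78% in 178, 179 and 352 (adjusted p = 0.0042, limma).

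Counting single C positions, with a minimum of 25 points, 1354 of 1308327 were lower (0.103%) and 110 higher (0.00841%), and without 352 these were 271 (0.0207%) and 110. With 352 counted as a control, as its genotype field has it, 0 tiles, 0 gene starts and 0 gene bodies were called in either direction (limma, with 2513, 200 and 455 at an unadjusted p under 0.05), and 53 positions were lower and 68 higher. In simulated data with the coverage and spread of these 5 libraries, the test recovered 44.8% of 67 tiles lowered by 20 points, 91% of 67 lowered by 30 and 100% of 66 lowered by 50. The simulated loss was equal in all knockouts and placed in tiles of high control level. Recovery of an unequal loss, as seen here, was therefore not measured. A call also needs at least 20 points, so tiles lowered by just 20 can miss it by scatter.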

How the data were processed

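MspI digests were size-selected to 150 to 400 bp and treated with bisulfite, and single reads of 50 bases were sequenced, per the labels' protocols. The deposited tables give, per the file headers, each C position with a count of the reads over it (coverage) and the percent that read C or T. Bismark is named in the submitters' processing notes, with mm10 and GRCm38 as builds, and versions are not given in the sources used here. Every listed position has at least 10 reads, so an unlisted position has fewer than 10 and not 0. Methylated reads were recovered as coverage times percent, which gave whole numbers for 100% of values.

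Levels of tiles and genes pool the reads of their members. Knockout and control were compared by a quasi-binomial logistic model with an F test, a dispersion of at least 1 moderated by limma 3.58.1 (R 4.3.3) with a prior from features at 5% to 95%, and Benjamini-Hochberg adjustment over all features. Exact permutation tests (two-sided) over libraries were used for means (scipy 1.17.1). Gene starts came from RefSeq promoter windows for 12839 of 17931 genes, and from the gene end with more members for the others. Gene features need at least 5 members. A 5-Mb window is group-specific where at least 10 positions, and 1% of those common to all, are covered by 20 or more reads in all libraries of 1 genotype and unlisted in the other. Named tiles and bodies are the 10 largest losses and up to 5 largest gains among the calls. Only calls with all knockouts on the same side of both controls were taken for these. Also named are called list members, the 10 tiles with the largest loss in LSK, and Dnmt3a, Dnmt3b, Dnmt1 and Tet2. Other genes named were chosen after their values were seen. Members and gene lists were chosen with earlier results of these data known. The regression on segment coverage recovered 89.5% of 200 simulated tiles, with 13 false calls. These tiles were lowered by 40 points at 0% coverage under the same model that was then fitted. The share therefore does not cover other patterns of loss.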

Additional observations from a re-analysis of the deposited data

How the results depend on the processing

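No paired analysis was possible because the knockout and control libraries share no replicate numbers. The loss over all members, in every bin and over the 954 tiles kept its direction without each library: -1.15 to -0.809 points over all members, -0.287 to -0.236, -7.24 to -4.74, -8.97 to -5.49, -7.33 to -4.56 and -1.49 to -1.10 in the 5 bins from low to high, and -26.1 to -15.7 over the tiles. With 352 counted as control, as its genotype field has it, the direction stayed but the differences were smaller. They were -0.330 points over all members and -4.60 over the 954 tiles. In the 5 bins from low to high they were -0.130, -1.70, -1.62, -1.36 and -0.476 points. Weighted by coverage, the mean difference was 0.411, and 0.452 without the 635 positions of more than 1000 reads, an alternative added after seeing the data.

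Counts of calls moved most. Without each library, lower and higher counts were 0 to 652 and 0 to 36 for tiles, 0 to 112 and 0 to 3 for gene starts, 0 to 197 and 0 to 10 for bodies, and 256 to 1577 and 51 to 110 for positions. Dropping a control leaves 1, whose spread is taken from the knockouts. With 352 as control, tiles and bodies had 0 and 0 calls and positions 53 and 68. With the prior on all features, tiles, bodies and positions had 0 and 0. Limma on logit levels gave 0 and 0 tiles and 1 and 0 bodies. A coverage minimum of 20 gave 255 and 5 tiles. Without group-specific windows there were 32 and 1 tiles, 29 and 1 bodies, and 1160 and 38 positions. The spread of all 11 libraries gave 308 and 6 tiles and 26 and 1 bodies. On segment coverage (added after seeing the data) there were 1684 and 20 tiles, 160 and 1 starts and 417 and 8 bodies with controls at 100%; 1326 and 8, 121 and 0, and 351 and 7 with controls at their own coverage; and 508 and 54, 63 and 5, and 89 and 8 without 352. The cause was not tested. In simulation at this depth, 34.8% of 66 single positions lowered by 50 points, equally in all knockouts, were recovered.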

Other observations

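The 50 tiles called lower by genotype were often more methylated in control GMP than in control LSK. Of the 48 measured in both, 31 (64.6%) were at least 10 points higher in control GMP, and 0 were at least 10 points lower. Over all 97462 tiles measured in both, 2.05% were higher and 3.48% lower by that much. Since high levels in the GMP controls helped these tiles to be called, the count is a description. Egfl7 was at 32.7% in control LSK and 0.921% in knockout LSK, against 79.3% and 80.2% in the GMP controls. Dlgap5 was at 37.7% and 6.23% in control and knockout LSK, and Tnfaip2 at 32.5% and 15.7%. The 954 tiles chosen in LSK did not share this, with 18.03% higher and 16.9% lower in control GMP, and means of 63.9% in control GMP and 63.3% in control LSK.

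The genes with the most tiles lower by segment coverage, chosen after their counts were seen, are given beside the 1.63% of all tiles that were lower (0.492% without 352). No test was run on these counts. Gse1, a subunit gene of a chromatin corepressor complex, had 16 of 114 measured tiles called lower (5 without 352). Nfix had 9 of 29 (5 without 352), Prdm16, a transcription factor gene of stem cells, 9 of 66 (4), Pitpnm2 8 of 33 (3) and Runx3 7 of 19 (3). All Prdm16 tiles called lie in a group-specific window.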
